A study of Mus musculus with 4 samples.

Results

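The genes described here are the 10 mouse genes of the TGF-beta ligands (Tgfb1, Tgfb2 and Tgfb3), the latent TGF-beta binding proteins (Ltbp1, Ltbp2, Ltbp3 and Ltbp4) and the TGF-beta receptors (Tgfbr1, Tgfbr2 and Tgfbr3). They were chosen by symbol, with earlier results of these data known. Each of the 10 had 1 row among the 17691 genes of the deposited expression table. The mice were wild type C57BL/6 animals, 6 to 8 weeks old, and RNA of whole lung was sequenced after treatment through the nose for 10 days with bleomycin, a DNA-breaking drug that provokes lung injury and fibrosis, or with PBS, a buffer. There were 2 bleomycin libraries and 2 PBS libraries, with values in FPKM (fragments scaled to transcript length and to the total of the library). The labels do not say whether the libraries came from separate or pooled animals, so the p-values reflect the scatter of these libraries alone, and that scatter may be technical.

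TGF-beta is secreted in a latent form, wrapped in its own cleaved propeptide. Ltbp1, Ltbp3 and Ltbp4 products bind that propeptide through disulfide bonds and tether the complex to fibrillin and fibronectin in the matrix, while the Ltbp2 product lies on the same microfibrils without binding latent TGF-beta. Integrins, thrombospondin and proteases release the ligand, which binds the type II receptor Tgfbr2. Tgfbr2 then recruits and phosphorylates the type I receptor Tgfbr1, which activates the SMAD transcription factors, and Tgfbr3 (betaglycan) is a co-receptor that presents ligand, above all the Tgfb2 product. In lung the pathway is best known for driving fibroblasts to make matrix, and Ltbp4 is needed for elastic fibres to assemble in the alveolar wall.

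The libraries were alike in depth, estimated at 17200000 and 17800000 fragments with bleomycin and 17000000 and 17100000 with PBS from the smallest steps between low values. At that depth every member rested on about 396 fragments or more in each library, so its counting error was at most about 5.03%. Over all tested genes the median absolute difference between replicates was 0.16 for the bleomycin pair and 0.09 for the PBS pair on the log2(FPKM + 1) scale. The lung epithelial genes Sftpc and Ager were abundant in all 4 libraries, at 7913 to 10882 and 1883 to 2834 FPKM with bleomycin and at 10221 to 12788 and 2269 to 2470 FPKM with PBS. The Y-linked gene Eif2s3y was listed at 0 in both bleomycin libraries and stood at 26.4 and 28.9 FPKM in the PBS libraries, so sex and treatment cannot be told apart here. None of the 10 genes lies on a sex chromosome.

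Upstream sequence is shown for Ltbp2, which rose most, for Ltbp4, which fell, and for the ligand genes Tgfb1 and Tgfb2. Their annotated start regions differ in make-up. The gene-level values do not say which starts were used in these lungs. RefSeq (GRCm38.p6) gave windows of 300 bases, from 250 before to 50 after a transcription start, for 8 of the 10 genes, and 12 windows in all since some genes have several starts. Tgfb3 and Tgfbr3 had none there. Capitals mark the motifs searched, on both strands. The palindrome GTCTAGAC is bound by SMAD proteins, and the letters TGACTCA are the site of the AP-1 factors. TEAD factors were represented by the core motif GGAATG, the GC box by the letters GGGCGG and the TATA box by the letters TATAAA. Copies of different motifs did not overlap, whereas some GC boxes of Ltbp4 overlapped each other in the windows not shown.
Ltbp2, chr12:84876442-84876741, minus strand: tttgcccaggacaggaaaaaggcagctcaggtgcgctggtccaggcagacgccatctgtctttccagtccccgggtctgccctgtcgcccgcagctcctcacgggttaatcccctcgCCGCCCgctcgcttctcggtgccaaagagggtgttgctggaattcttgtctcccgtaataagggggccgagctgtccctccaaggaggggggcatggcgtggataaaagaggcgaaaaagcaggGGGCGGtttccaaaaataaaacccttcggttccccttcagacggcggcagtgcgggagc
Ltbp4, first of 3 starts, chr7:27337563-27337862, minus strand: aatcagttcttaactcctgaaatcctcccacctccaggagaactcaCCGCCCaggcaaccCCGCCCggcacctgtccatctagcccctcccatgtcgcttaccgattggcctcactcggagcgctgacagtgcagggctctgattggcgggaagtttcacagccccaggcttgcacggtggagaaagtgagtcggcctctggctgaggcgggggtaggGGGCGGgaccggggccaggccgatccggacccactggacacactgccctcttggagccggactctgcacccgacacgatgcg
Tgfb1, chr7:25686752-25687051, plus strand: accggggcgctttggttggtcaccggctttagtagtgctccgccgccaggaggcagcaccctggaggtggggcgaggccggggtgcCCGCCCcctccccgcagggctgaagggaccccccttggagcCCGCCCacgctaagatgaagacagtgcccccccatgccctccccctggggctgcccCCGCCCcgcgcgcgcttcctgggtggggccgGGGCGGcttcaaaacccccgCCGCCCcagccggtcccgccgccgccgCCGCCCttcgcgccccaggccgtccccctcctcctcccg
Tgfb2, chr1:186705940-186706239, minus strand: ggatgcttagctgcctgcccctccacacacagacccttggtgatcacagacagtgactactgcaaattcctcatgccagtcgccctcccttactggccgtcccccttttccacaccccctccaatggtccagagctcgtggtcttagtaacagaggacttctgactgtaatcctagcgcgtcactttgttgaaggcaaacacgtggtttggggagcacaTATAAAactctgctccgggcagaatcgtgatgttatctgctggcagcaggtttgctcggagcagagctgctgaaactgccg
The Tgfb1 window had a GC content of 77% and held 6 GC boxes. The Tgfb2 window had 54.3% and held a single TATA box that begins 31 bases before the start. On the minus strand the annotated Tgfb2 and Ltbp4 genes reach 186709697 and 27339720, upstream of the windows shown. Those windows are therefore not at the outermost ends of these genes. The Ltbp2 window had 61% GC and 2 GC boxes, and the Ltbp4 window shown, of start 1, had 64.3% GC and 3 GC boxes. The Ltbp4 windows of starts 2 and 3, which are not shown and overlap each other, had 80.3% and 81.3% GC. Both were above the Tgfb1 window in GC content and in GC boxes, so the window shown does not stand for all starts of Ltbp4. Across the members, GC boxes were found in 4 genes (Tgfb1, Ltbp2, Ltbp4 and Tgfbr1), AP-1 letters in Ltbp3 and the TATA box in Tgfb2. Counted by window, 6 of the 12 member windows held a GC box, 1 the AP-1 letters and 1 the TATA box. Among 32851 promoter windows in that table, 35.7% held a GC box, 5.2% the AP-1 letters and 13.6% the TATA box. The SMAD palindrome, held by 0.213% of windows, and the TEAD letters, held by 14.7%, were in no member window, which says only that these letters are not within these bases.

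Of the 10 genes, 4 rose with bleomycin (Tgfb1, Tgfb2, Ltbp2 and Tgfbr2), 2 fell (Ltbp4 and Tgfbr3) and 4 missed the threshold of 0.05 for the adjusted p of limma. Across all 12986 genes tested, 8.59% were called higher, 7.69% lower and 16.3% in either direction. The median log2 fold change of the 10 genes was 0.48, against -0.02 over all genes tested. In 8 of the 10 genes both bleomycin libraries lay above both PBS libraries and in the other 2 both lay below, while such separation was seen in 66.5% of all genes tested, 31.5% above and 35% below. Fold changes below are on the log2(FPKM + 1) scale, bleomycin minus PBS, with the standard error and the adjusted p of limma over all genes. No call of the 10 genes held when either PBS library was left out. Nor did any call among all genes, and the spread then came from the bleomycin pair alone. Leaving out bleomycin replicate 1 or 2 kept every direction, with changes of 2.89 and 1.93 for Ltbp2 and -1.38 and -1.29 for Ltbp4. The lone library was then assumed to vary like the PBS pair.

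**Figure D1:**
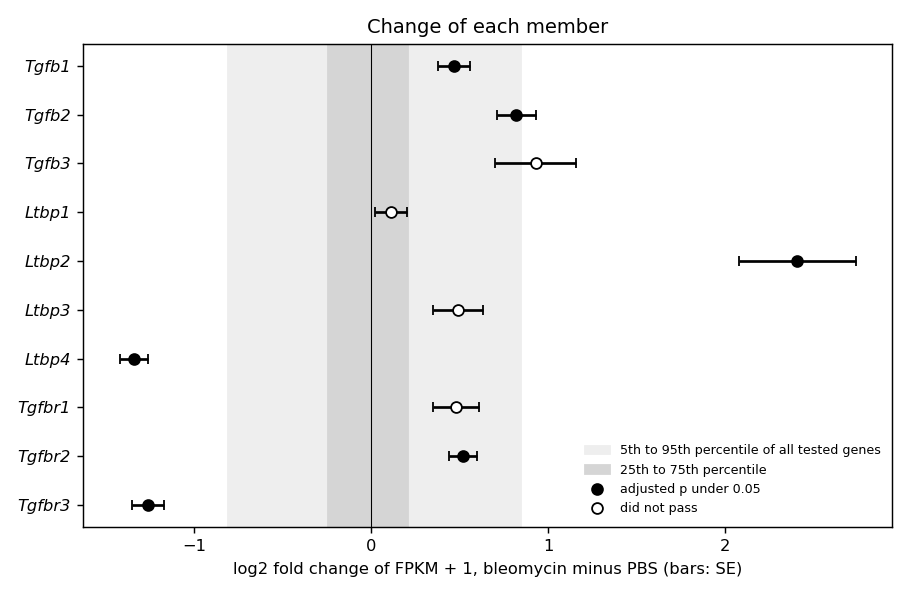
Log2 fold change of FPKM + 1, bleomycin minus PBS, for the 10 genes (points, with bars of 1 SE). Grey bands span the 5th to 95th and the 25th to 75th percentile of all tested genes (-0.81 to 0.85 and -0.24 to 0.21), and Ltbp2, Ltbp4, Tgfbr3 and Tgfb3 lie outside the wider band.

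Among the ligands, Tgfb1 (gene 21803, GRCm38.p6 chromosome 7, 25687002 to 25705077), the form most studied in fibrosis, was the most abundant in every library. It stood at 60.7 and 58.9 FPKM in the bleomycin libraries, against 40.9 and 45.2 FPKM in the PBS libraries. The groups did not overlap, and the rise was 0.47 ± 0.09 (adjusted p = 0.0323 by limma). With the replicate number as a block Tgfb1 did not pass (adjusted p = 0.0628 by limma). Tgfb2 (gene 21808, chromosome 1, 186622787 to 186709697), which needs betaglycan for strong receptor binding, was the least abundant ligand at 15.6 and 15.7 FPKM with bleomycin and 9.22 and 7.74 FPKM with PBS. Its bleomycin libraries were almost equal and its rise was 0.82 ± 0.11 (adjusted p = 0.0168 by limma), 1.85-fold in mean FPKM. Tgfb3 (gene 21809, chromosome 12, 86056743 to 86079041), made largely by mesenchymal cells, had 26.3 and 41.8 FPKM with bleomycin and 17.7 and 16.3 FPKM with PBS. The second bleomycin library was well above the first, and although the mean was 2-fold that of PBS the difference of 0.93 ± 0.23 did not pass (adjusted p = 0.057 by limma).

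The 3 ligands summed to 109 ± 9.73 FPKM with bleomycin and 68.5 ± 1.05 FPKM with PBS (SD, n = 2 each). The order Tgfb1, Tgfb3, Tgfb2 held in all 4 libraries, with no overlap between neighbours within a group. Tgfb1 made up 59.2% and 50.6% of the ligand sum with bleomycin, against 60.3% and 65.3% with PBS. The share of the first bleomycin library lay close to that of the first PBS library. Sums and shares are given as values and were not tested.

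**Figure D2:**
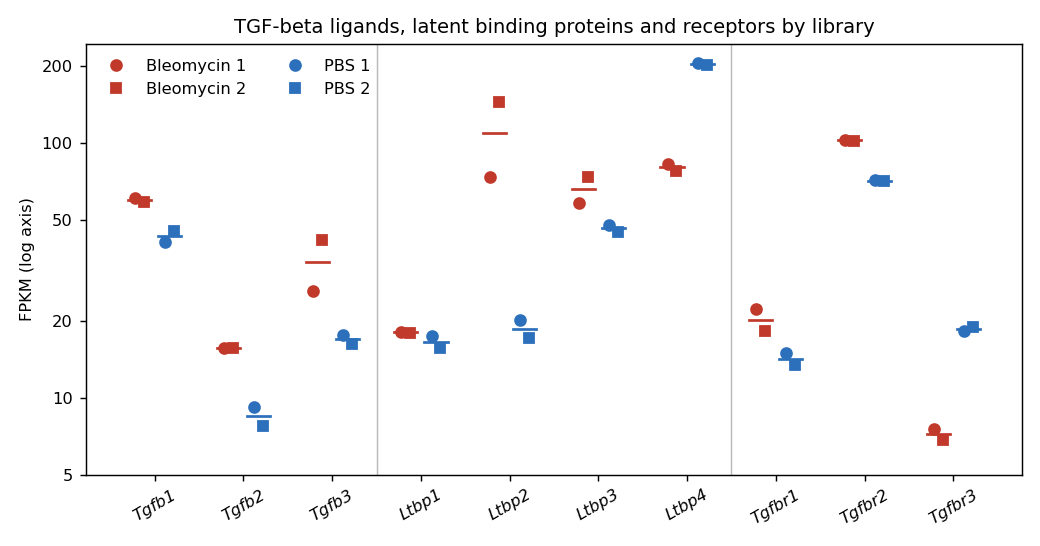
FPKM of each gene (log axis) in the bleomycin libraries (red) and the PBS libraries (blue), with replicate 1 as circles, replicate 2 as squares and a line at the group mean. Ltbp4 and Tgfbr3 lie lower with bleomycin, and Ltbp2 shows the widest gap between bleomycin libraries, at 73.9 and 144.7 FPKM.

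The latent binding proteins moved in opposite directions. Ltbp2 (gene 16997, chromosome 12, 84783212 to 84876558), the microfibril protein that does not carry TGF-beta, stood at 73.9 and 144.7 FPKM with bleomycin, against 20.2 and 17.2 FPKM with PBS. Every bleomycin value was above every PBS value, the mean was 5.85-fold higher and the rise was 2.41 ± 0.33 (adjusted p = 0.0169 by limma). Only 0.508% of tested genes had a larger absolute change. Ltbp4 (gene 108075, chromosome 7, 27305140 to 27339720), which helps fibulin-5 deposit elastin and carries the latent Tgfb1 product weakly, fell. It had 83 and 78.1 FPKM with bleomycin, against 207 and 203 FPKM with PBS, and its libraries lay close together within each group. The fall was -1.34 ± 0.08 (adjusted p = 0.00571 by limma), and the PBS mean was 2.54-fold the bleomycin mean.

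Ltbp3 (gene 16998, chromosome 19, 5740900 to 5758536), which binds latent TGF-beta and is known for roles in bone and teeth, had 58 and 73.6 FPKM with bleomycin and 47.7 and 44.8 FPKM with PBS. The groups did not overlap but the difference of 0.49 ± 0.14 did not pass (adjusted p = 0.0745 by limma). Ltbp1 (gene 268977, chromosome 17, 75005480 to 75392512), a main carrier of the latent Tgfb1 product, had 18.2 and 18 FPKM with bleomycin and 17.6 and 15.7 FPKM with PBS. Its difference of 0.11 ± 0.09 did not pass (adjusted p = 0.424 by limma), and 72.3% of tested genes had a larger absolute change. In the annotation Ltbp2 shares 764 exonic bases, 9.34% of its exons, with the antisense gene D030025P21Rik. The sources used here do not say whether counting used strand, so reads of that gene and of Ltbp2 cannot be told apart there. Smaller overlaps with other genes, of 2.01% to 7.6% of exonic bases, are annotated for Tgfb2, Tgfb3, Ltbp3 and Tgfbr3.

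Summed over the 4 genes, latent binding protein levels were 274 ± 57.5 FPKM with bleomycin and 286 ± 8.25 FPKM with PBS (SD, n = 2 each), a difference smaller than the spread of the bleomycin pair. The make-up of that sum differed widely. Ltbp4 held 35.6% and 24.8% of it with bleomycin, against 70.7% and 72.3% with PBS. Ltbp2 held 31.7% and 46% with bleomycin, against 6.92% and 6.12% with PBS. Ltbp3 held 24.9% and 23.4% with bleomycin, against 16.3% and 16% with PBS, and Ltbp1 stayed between 5.59% and 7.8% in all 4 libraries. With PBS the levels ran Ltbp4, Ltbp3 and then Ltbp2 and Ltbp1, whose values overlapped. With bleomycin the values of Ltbp2 and Ltbp4 overlapped at the top, Ltbp3 lay just below and Ltbp1 was lowest.

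**Figure D3:**
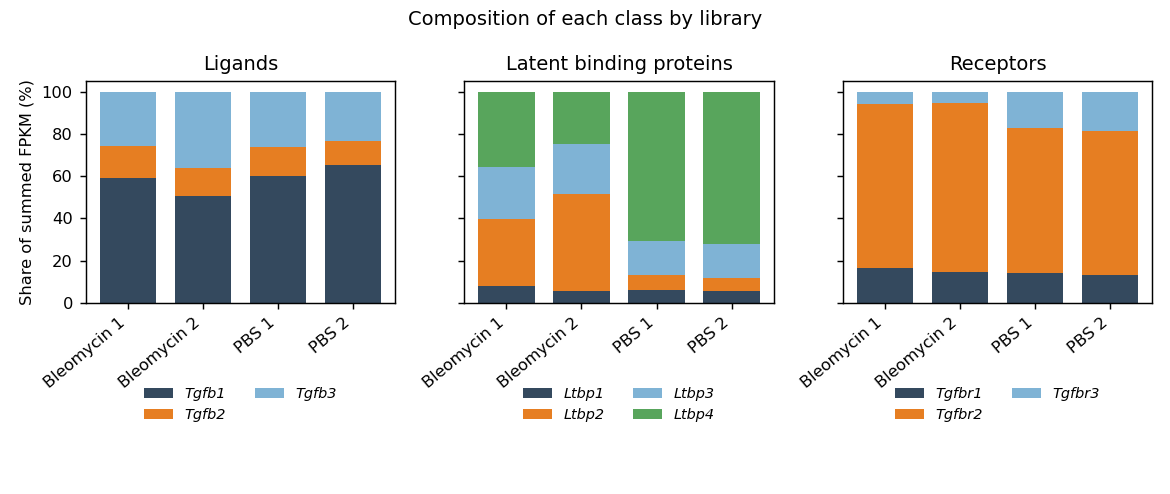
Share of each gene in the summed FPKM of its class (percent), with 1 bar for each library, bleomycin left of PBS. Ltbp4 is the largest part of the latent binding protein sum with PBS (70.7% and 72.3%) and Ltbp2 takes 31.7% and 46% with bleomycin, while the ligand bars differ less.

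The receptors also parted. Tgfbr2 (gene 21813, chromosome 9, 116087695 to 116175363), the receptor that binds ligand first, was the most abundant at 103 and 102 FPKM with bleomycin and 71.8 and 70.8 FPKM with PBS. Replicates of each group were almost equal and the rise was 0.52 ± 0.08 (adjusted p = 0.0192 by limma). Tgfbr1 (gene 21812, chromosome 4, 47353222 to 47414926), the kinase that phosphorylates SMAD proteins, had 22.3 and 18.3 FPKM with bleomycin and 15 and 13.5 FPKM with PBS. The groups did not overlap, but the difference of 0.48 ± 0.13 did not pass (adjusted p = 0.0682 by limma). It passed under 3 other scalings between libraries, with adjusted p from 0.0428 to 0.0473 by limma. Tgfbr3 (gene 21814, chromosome 5, 107106567 to 107289629), the co-receptor betaglycan, stood at 7.54 and 6.85 FPKM with bleomycin, against 18.2 and 19 FPKM with PBS. All bleomycin values were far below all PBS values, with a fall of -1.26 ± 0.09 (adjusted p = 0.00621 by limma) and a PBS mean 2.59-fold the bleomycin mean.

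The proportion of co-receptor to signalling receptor also differed. The ratio of Tgfbr3 to Tgfbr2 in FPKM was 0.073 and 0.0672 with bleomycin, against 0.254 and 0.269 with PBS. The ratio of Tgfbr1 to Tgfbr2 was 0.216 and 0.179 with bleomycin, against 0.209 and 0.191 with PBS, and here the groups overlapped. Tgfbr3 lay above Tgfbr1 in both PBS libraries and below it in both bleomycin libraries. The 3 receptors together summed to 130 ± 4.26 FPKM with bleomycin and 104 ± 1.22 FPKM with PBS (SD, n = 2 each).

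The genes also differed in how far the bleomycin libraries lay apart. Bleomycin replicate 2 exceeded replicate 1 by 1.96-fold for Ltbp2, 1.59-fold for Tgfb3 and 1.27-fold for Ltbp3. In log2(FPKM + 1), 0.662%, 1.76% and 6.28% of all tested genes had a larger excess in replicate 2. For the other 7 genes the replicate 2 value was between 0.821 and 1 times that of replicate 1. Eln, the elastin gene, stood at 1243 and 4990 FPKM in the same order, a 4.01-fold gap. The PBS pair differed less for Ltbp2 and Tgfb3, where replicate 2 was 0.848 and 0.921 times replicate 1. Summed mesothelial markers (5 genes) were at 113 and 339 FPKM in bleomycin replicates 1 and 2, against 204 and 149 FPKM with PBS. Msln alone held 60.9 and 257 FPKM of this with bleomycin, and the other 4 summed to 52 and 82.1 FPKM with bleomycin and 120 and 91.9 FPKM with PBS. Without Msln, bleomycin replicate 2 was thus still above replicate 1 but below both PBS libraries. The 8 macrophage markers summed to 5560 and 2010 FPKM with bleomycin and 2490 and 3080 FPKM with PBS. Of this Lyz2 alone held 4992 and 1608 FPKM with bleomycin and 2304 and 2892 FPKM with PBS. Not every macrophage marker was lower in bleomycin replicate 2. Marco was at 11.7 and 64.2 FPKM in replicates 1 and 2, and Mrc1 at 25 and 26.4 FPKM. Other marker sums also differed between bleomycin replicates 1 and 2. B cell markers were at 33.9 and 6.01 FPKM, T and NK cell markers at 31.4 and 11 FPKM and alveolar type I markers at 2880 and 4130 FPKM. The summed smooth muscle and pericyte markers were nearly equal, at 164 and 163 FPKM, but single markers differed in both directions. Actg2 stood at 20.8 and 38.6 FPKM, and Higd1b at 25 and 15.5 FPKM. The part of cell make-up in the gaps between bleomycin libraries was not tested.

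**Figure D4:**
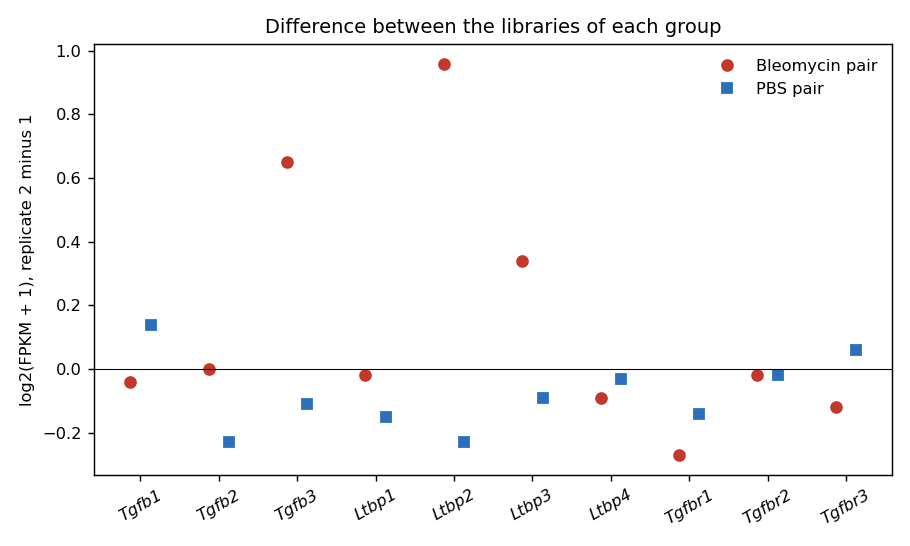
Difference in log2(FPKM + 1) between replicate 2 and replicate 1 for each gene, for the bleomycin pair (red circles) and the PBS pair (blue squares). Ltbp2, Tgfb3 and Ltbp3 lie at 0.96, 0.65 and 0.34 in the bleomycin pair, while the other 7 genes lie between -0.27 and 0.

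Cell markers moved in the same libraries, and in whole lung fewer cells of a type and less RNA per cell cannot be told apart. Beside the falls of Ltbp4 and Tgfbr3, 3 of 8 resident fibroblast markers fell and 0 rose, with summed levels of 1540 and 825 FPKM with bleomycin and 3500 and 4140 FPKM with PBS. Inmt alone held 314 and 168 FPKM of this with bleomycin and 2328 and 2936 FPKM with PBS. The other 7 summed to 1220 and 657 FPKM with bleomycin and 1170 and 1200 FPKM with PBS, where the groups overlapped. Pdgfra, a general fibroblast marker, was at 50.9 and 46.3 FPKM with bleomycin and 48.6 and 50.2 FPKM with PBS. Of 8 endothelial markers 3 fell and 0 rose, with sums of 1200 and 1100 FPKM with bleomycin and 1570 and 1670 FPKM with PBS. Beside the rise of Tgfb1, 4 of 8 macrophage markers rose and 0 fell, while 3 of 6 markers of platelets, which store the Tgfb1 product, fell and 0 rose. Without Lyz2 the other 7 macrophage markers summed to 570 and 398 FPKM with bleomycin and 187 and 192 FPKM with PBS. Platelet marker sums were 42.6 and 32.7 FPKM with bleomycin and 92.3 and 174 FPKM with PBS. Among the other marker lists, 0 of 5 mesothelial, 0 of 6 alveolar type II and 0 of 4 B cell markers passed. Of 8 smooth muscle and pericyte markers 1 rose, of 6 alveolar type I markers 1 rose and 2 fell, and of 6 T and NK cell markers 1 rose. Falls numbered 3 of 6 club and ciliated, 3 of 5 neutrophil, 6 of 6 hepatocyte and 5 of 5 red blood cell markers, with no rise. For comparison, 8.59% of all genes tested were called higher and 7.69% lower. Counts in these short lists were not tested against those shares. No marker on the 14 lists was at 0 in any library, and their part in the results was not tested.

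By centred log2(FPKM + 1) profile over the 4 libraries, the tested genes nearest to Ltbp2 were Igf1, Klhdc8a and Cilp, at Euclidean distances of 0.228, 0.24 and 0.244. Igf1, a growth factor gene, had 18.3 and 31.6 FPKM with bleomycin and 3.55 and 2.83 FPKM with PBS, and was likewise higher in bleomycin replicate 2. Nearest to Ltbp4 were Specc1l, Adra1a and Plg (0.0519, 0.0587 and 0.0716), and nearest to Tgfbr3 were Aspa, Cbx7 and Baiap3 (0.0594, 0.073 and 0.0765). Adra1a had 0.46 and 0.36 FPKM with bleomycin and 2.56 and 2.36 FPKM with PBS. Plg (0.22 and 0.2 against 2.12 and 1.91 FPKM) and Baiap3 (0.85 and 0.67 against 2.88 and 3.18 FPKM) were also low. The log2(FPKM + 1) scale understates changes of such low genes, so nearness there does not mean an equal fold change. Nearest to Tgfbr2 were Orai1, Bysl and Rwdd2b (0.0121, 0.0171 and 0.0206), to Tgfb1 Cklf, Ndufa11 and Eif5a (0.0132, 0.0192 and 0.0249), and to Tgfb2 Naglu, Uchl3 and Clec10a (0.0409, 0.0494 and 0.0501). With 4 libraries many genes share a profile, so these distances only describe likeness.

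Other genes of the pathway were counted in 6 lists with 81 genes in all, of which 76 were tested. Of these 31 rose, 7 fell and 38 did not pass, with a median log2 fold change of 0.72. The shares of all genes called higher and lower, 8.59% and 7.69%, are the background for the lists. The lists were chosen with earlier results of these data known, so an excess over these shares is no test of the pathway.

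Genes that release or process latent TGF-beta were called higher more often than lower. Of 16 tested, 7 rose, 1 fell and 8 did not pass, with a median of 0.68, and Itgb8 was below the filter. Thbs1, whose product thrombospondin activates latent TGF-beta, had 165 and 164 FPKM with bleomycin and 27.4 and 22.9 FPKM with PBS (2.67 ± 0.11, adjusted p = 0.00358 by limma). Itgb6, the epithelial integrin chain that pulls on the propeptide, had 22.3 and 31.1 FPKM with bleomycin and 5.42 and 4.08 FPKM with PBS (2.26 ± 0.20, adjusted p = 0.00833 by limma). The protease genes Mmp14 (2.23 ± 0.17), Mmp2 (1.41 ± 0.12) and Bmp1 (1.03 ± 0.12) rose, Bmp1 encoding an enzyme that cuts the Ltbp1 product. Itgav, the chain that pairs with the Itgb6 product, rose by 0.83 ± 0.11 and Furin, which cuts the ligand precursors, by 0.72 ± 0.10. Mmp9, a gelatinase gene, was the one that fell (-0.79 ± 0.18, adjusted p = 0.049 by limma). That call was lost with pseudocounts of 0.1 and 0.5, without a filter and under all 3 other scalings, with adjusted p from 0.0505 to 0.0899 by limma. Itgav, Furin and Mmp9 were chosen after their values were seen. The abundant integrin chains Itgb1 and Itgb5 did not pass, at 0.18 ± 0.10 and 0.22 ± 0.10.

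Matrix partners of the latent complex rose in 6 of 9 tested genes, with none called lower, a median of 0.85 and Fbn2 below the filter. Besides Eln (4.43 ± 0.67), Fn1 (fibronectin, 2.69 ± 0.14), Fbn1 (fibrillin, 1.79 ± 0.27), Emilin1 (0.85 ± 0.08) and Efemp2 (fibulin-4, 0.82 ± 0.10) rose. Fbn1, to whose product the latent binding proteins attach, had 43.6 and 74.5 FPKM with bleomycin and 17.5 and 14.2 FPKM with PBS. Fbln5, the fibulin partner of Ltbp4, had 46.1 and 69.7 FPKM with bleomycin and 33.9 and 34.4 FPKM with PBS and did not pass (adjusted p = 0.0793 by limma). Adamtsl2 did not pass either, at -0.03 ± 0.17.

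Co-receptors and extracellular modulators were split, with 2 rises, 3 falls and 5 not past the test among 10 genes and a median of -0.20. Acvrl1 and Eng, an endothelial type I receptor and its co-receptor, fell (-0.70 ± 0.12 and -0.66 ± 0.12). Eng had 157 and 145 FPKM with bleomycin and 218 and 263 FPKM with PBS, and did not pass without a filter on low values (adjusted p = 0.0592 by limma). Among proteoglycans that bind TGF-beta, Fmod (1.46 ± 0.16) and Aspn (0.89 ± 0.10) rose and Dcn (-0.64 ± 0.08) fell. Bgn, at 1046 and 1702 FPKM with bleomycin and 759 and 671 FPKM with PBS, did not pass (adjusted p = 0.0853 by limma), nor did Nrp1 (-0.22 ± 0.08). The falls of Acvrl1 and Eng stand beside those of 3 of the 8 endothelial markers given above. The other 5 did not pass, and of these Cldn5 and Vwf overlapped between groups.

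SMAD signalling genes moved in both directions, with 4 rises, 2 falls and 10 not past the test among 16 genes and a median of -0.05. Pmepa1, an inhibitor of the pathway that TGF-beta itself induces, had 43.6 and 58.9 FPKM with bleomycin and 18.7 and 20.2 FPKM with PBS (1.34 ± 0.16, adjusted p = 0.0132 by limma). The co-repressor gene Tgif1 (0.82 ± 0.15) and the transducer gene Smad3 (0.46 ± 0.10) also rose, as did the co-repressor gene Skil (0.46 ± 0.08), which was chosen after its values were seen. Without the filter Tgif1 and Smad3 did not pass (adjusted p = 0.0593 and 0.068 by limma), nor did Smad3 under quantile scaling (adjusted p = 0.0501 by limma). Smad6, an inhibitory SMAD of the BMP branch, fell (-0.94 ± 0.10), as did the ubiquitin ligase gene Smurf2 (-0.54 ± 0.08). Ski and Ppm1a did not pass, at -0.01 ± 0.10 and -0.19 ± 0.09.

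Known target genes of TGF-beta rose in 10 of 18 tested, with 0 falls, 8 not past the test and a median of 1.11. Comp and Has2 were below the filter. Col1a1 (2.06 ± 0.17), Ctgf (1.71 ± 0.35), Acta2 (1.52 ± 0.26) and Tgfbi (1.49 ± 0.17) rose, of which Ctgf and Acta2 did not pass without the filter (adjusted p = 0.0809 and 0.0568 by limma). Col1a1, which encodes a chain of type I collagen, had 327 and 435 FPKM with bleomycin and 96.6 and 83.1 FPKM with PBS. The target Postn, which encodes periostin, stood at 180 and 202 FPKM with bleomycin and 195 and 212 FPKM with PBS, and these ranges overlapped. Tagln, a contractile gene, had 172 and 288 FPKM with bleomycin and 123 and 119 FPKM with PBS and did not pass (adjusted p = 0.0824 by limma).

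In the related activin branch 2 genes rose, 1 fell and 4 did not pass among 7 tested, with a median of 0.87. Fst, whose product follistatin traps activin, had 11.1 and 35 FPKM with bleomycin and 1.54 and 2.31 FPKM with PBS (2.84 ± 0.53, adjusted p = 0.0321 by limma), and did not pass without the filter (adjusted p = 0.0701 by limma). The activin subunit gene Inhba rose by 1.39 ± 0.15, with 2.66 and 2.24 FPKM with bleomycin and 0.33 and 0.29 FPKM with PBS. The activin receptor gene Acvr2b fell (-0.55 ± 0.12, adjusted p = 0.0452 by limma), a call lost without the filter and with TPM scaling (adjusted p = 0.0762 and 0.0532 by limma). Fstl3 (0.87 ± 0.37) and Acvr1b (0.05 ± 0.11) did not pass.

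**Figure D5:**
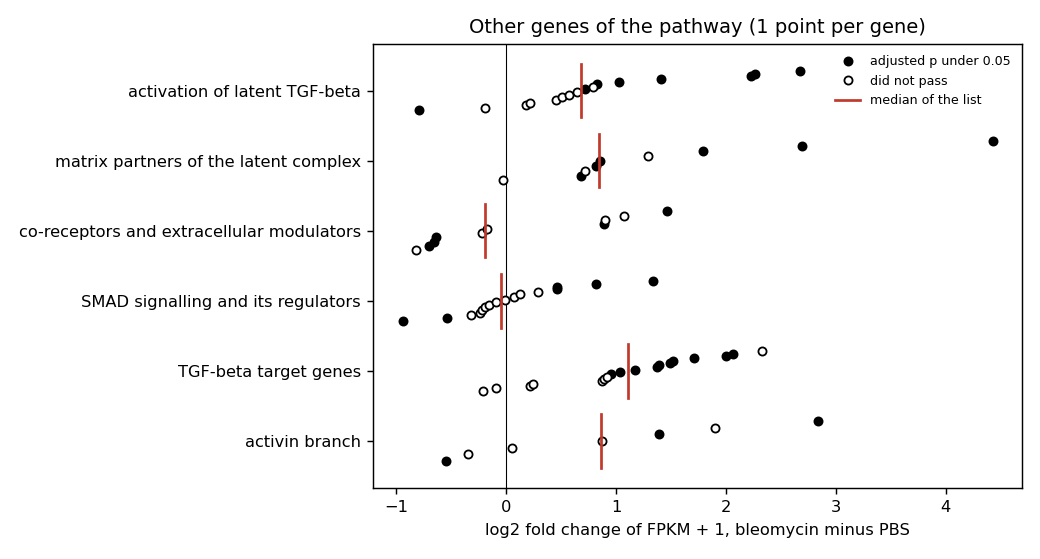
Log2 fold change of FPKM + 1, bleomycin minus PBS, for the tested genes of 6 pathway lists, with 1 point per gene, filled where the adjusted p is under 0.05, and a red line at each list's median. Medians lie at 1.11 for target genes and 0.85 for matrix partners, and near 0 for SMAD signalling (-0.05).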

How the data were processed

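Lung RNA of 4 mouse libraries, 2 per group by their titles, was analysed. The authors deposited 1 table of gene-level FPKM, per the file headers, rounded to 2 decimals. The submitters' processing notes name Bowtie2, HISAT, mm10 and GRCm38. Tool roles and versions, the quantification program and the strand setting are not given in the sources consulted. Because FPKM is relative to each library's total, an abundant gene lowers the rest, and Scgb1a1 took 3.98% and 4.28% of summed FPKM with bleomycin and 11.2% and 8.35% with PBS. The labels mention 4 groups and the design text 3 replicates, of which the table used here holds 2 libraries in each of 2 groups.

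Of 17692 rows, 1 without a name was left out (at most 0.0009% of a library's sum) and 27 names turned into dates were restored through RefSeq accessions. The test was limma 3.58.1 in R 4.3.3 on log2(FPKM + 1) (eBayes with trend, 2.76 prior and 2 residual degrees of freedom) on the 12986 genes whose mean reached 1 FPKM, two-sided, with Benjamini-Hochberg adjustment over all of them at 0.05. All 10 members passed that filter. This scale understates changes of low genes. The functions were tested on simulated data. Depth was estimated from values of 0.03 to 0.3 FPKM of genes with 1 transcript of 300 to 1000 bases, of which 75% to 78.1% came within 0.15 of a whole number of fragments (chance at any given depth, 30%). The depth with the highest share was taken, which overstates that share. Members' fragments use the shortest listed transcript. Transcript lengths and exon overlaps came from GENCODE M21, and positions and promoters from RefSeq GRCm38.p6. Nearest genes are by Euclidean distance of centred profiles.

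The members, the 6 pathway lists and the 14 marker lists were chosen with earlier results of these data known. From each pathway list the text names up to 5 called genes with the largest change and the 2 most abundant that did not pass, with exceptions named. A gene that this rule takes is not reported here. Alternatives were other pseudocounts (0.1 and 0.5), other filters (none, or 5 FPKM), quantile, TPM and upper quartile scaling, eBayes fitted robustly or with no trend, the replicate number as a block, and the omission of each library in turn. No count model was run on these FPKM values. Tables were made in Python 3.11.15.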

Additional observations from a re-analysis of the deposited data

How the results depend on the processing

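No fold change of the 10 genes changed sign in any of the 14 alternatives, and the values ranged from 1.93 to 2.89 for Ltbp2, -1.40 to -1.27 for Ltbp4, -1.36 to -1.20 for Tgfbr3, 0.40 to 0.54 for Tgfb1, 0.71 to 0.93 for Tgfb2, 0.60 to 1.25 for Tgfb3, 0.04 to 0.19 for Ltbp1, 0.32 to 0.66 for Ltbp3, 0.34 to 0.61 for Tgfbr1 and 0.48 to 0.59 for Tgfbr2. Leaving out 1 library moved the limma counts, from 0 to 2402 called higher and 0 to 3144 called lower among all genes, 0 to 7 and 0 to 2 among the 10 genes, and 0 to 47 and 0 to 12 among the pathway genes. Every 0 arose without a PBS library, when the spread comes from the bleomycin pair alone. At an unadjusted p under 0.05 limma then gave 1120 and 1143 higher and 1007 and 1059 lower over all genes, and 32 and 31 higher and 7 and 6 lower among the pathway genes. Without a filter on low values 4 pathway genes were called lower, against 7 with it. Tgfb3, Ltbp3 and Tgfbr1 passed when a bleomycin library, whichever of the pair, was left out, with the lone library then assumed to vary like the other group. The labels do not say whether same-numbered libraries were paired. Their deviations correlated at 0.02 over genes, which cannot decide this with 2 libraries per group. With the replicate block 842 genes were higher and 799 lower, and Tgfb1 no longer passed (adjusted p = 0.0628 by limma), leaving 3 members higher and 2 lower. Of the pathway genes named, Eng, Smad3, Skil and Acvr2b did not pass with the block either (adjusted p = 0.0575, 0.0719, 0.0608 and 0.0681 by limma). The median of all genes was -0.01 with quantile and with upper quartile scaling and 0.04 with TPM scaling, against -0.02 without scaling. The cause of these changes was not tested.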
